A study of Sus scrofa with 21 samples.

Results

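LPL, PDK4, PNPLA3, STARD4 and ACACA are 5 genes of lipid handling and fuel choice among the 2389 pig genes named on the array, and they are followed here through the first weeks of pregnancy in the uterine lining. They were chosen by measured values of these same arrays: LPL and PDK4 were selected on their difference between day 13 attachment sites and non-pregnant sows. For PNPLA3, STARD4 and ACACA the comparison behind the choice is not recorded, so every difference of the 5 genes is given as a description, with its standard error (SE) and without a p-value. All probes with an accession of these genes were taken, 20 in all, of which 19 were bright enough to test. LPL had 5 probes, PDK4 9, PNPLA3 3, STARD4 1 and ACACA 2, and the brightest stood for each gene.

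The study asked which genes differ in the endometrium of the pig during implantation. Large White sows were inseminated and killed on day 13, 18 or 24, with 3 sows a day, and endometrium was taken where a conceptus was attached (attachment site) and from the stretch between conceptuses (inter-site). The control sows, called non-pregnant, received inactivated sperm of the same boar and were killed on day 13, with 3 sows. Each of the 7 groups had 3 arrays, 1-colour Agilent porcine arrays of total RNA, and the labels do not say which arrays share a sow. No non-pregnant group of day 18 or 24 was analysed here, so pregnancy can be set against its control on day 13 only.

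LPL is secreted and works at the capillary wall, where it splits the triglyceride of circulating lipoproteins so that the tissue can take up the fatty acids. PDK4 is a mitochondrial kinase that switches off the pyruvate dehydrogenase complex and so keeps glucose carbon out of oxidation when fatty acids are burnt. PNPLA3 sits on lipid droplets, and its hydrolase and acyltransferase activities are known from human and mouse work. STARD4 is a soluble protein that carries cholesterol between membranes, and ACACA makes malonyl-CoA, the committed step of fatty acid synthesis. In the pig the conceptus stays in the uterine lumen, attaches to an intact epithelium and takes up what that epithelium secretes and passes on, lipids among it.

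Levels are log2 signal relative to the 75th percentile of the array. On single arrays, 62.3% to 77.1% of probes exceeded the local background clearly. Over all probes 3 arrays stood apart from their groups. The third array of non-pregnant endometrium and the third from day 24 inter-sites (replicate 3 of each) shared a correlation of 0.988, but had 0.947 or less with their own groups. Day 13 inter-site replicate 1 reached at most 0.943 within its group. Whether the 2 arrays that resemble each other hold the samples their labels name was not tested, so results that rest on them are also given without them. Probes of 6 of 6 tested epithelial markers, of the stromal marker DCN and of 4 of 4 endothelial markers were above background on every array. The list of smooth muscle markers was high on non-pregnant replicates 1 and 2 (list medians 3.12 and 3.03 above its level over all arrays) and low on replicate 3 (-2.22). These are samples of whole tissue, in which fewer cells of a type and less RNA per cell cannot be told apart.

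LPL was lowest in non-pregnant endometrium and highest at day 24 attachment sites. At attachment sites it measured 1.56, 0.09 and 0.38 on day 13, -0.34, -0.79 and -0.04 on day 18, and 1.28, 1.61 and 2.27 on day 24. At inter-sites it measured -1.03, 1.19 and 0.07 on day 13, 0.14, -0.30 and 0.84 on day 18, and 0.26, 0.71 and -1.13 on day 24. The 3 non-pregnant arrays gave -2.68, -3.86 and -0.95. All 9 attachment arrays therefore lay above all 3 non-pregnant ones, while 1 array each of the day 13 and day 24 inter-sites, both among those that stand apart, lay within the non-pregnant range.

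The day 13 attachment sites averaged 0.68 ± 0.78 and the non-pregnant sows -2.50 ± 1.47 (SD, n = 3 each), a log2 difference of 3.18 (SE 0.68), or 9.04-fold. All 5 LPL probes gave this direction, with differences of 2.76 to 3.18. Both dim LPL probes were not well above background on any non-pregnant array and were at least 2.69-fold and 2.23-fold brighter at day 13 attachment sites. Each bound sets the mean of the brighter group against, on each array, the dim signal itself or the faintest measurable one, whichever is larger. Without non-pregnant replicate 3 the difference of the brightest probe was 3.95. Within the 2 slides that held both groups it was 5.43 and 1.33.

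Along pregnancy, LPL at attachment sites was lower on day 18 than on day 13 by a log2 difference of -1.07 and higher on day 24 than on day 18 by 2.11 (SE 0.68 each). The arrays of neighbouring days did not overlap in either step for this probe, or for 3 and 5 of the 5 LPL probes. Without day 13 attachment replicate 1 the step between days 13 and 18 was -0.63. The inter-site means were 0.08 ± 1.11 on day 13, 0.23 ± 0.58 on day 18 and -0.05 ± 0.96 on day 24, and all neighbouring days overlapped. The site difference changed by -1.22 between days 13 and 18 and by 2.39 between days 18 and 24 (SE 0.96 each), and neither change was past the threshold among all probes. The epithelial list medians also had all day 18 attachment arrays below those of days 13 and 24, at 0.75, 0.20 and 0.42 on day 13, -0.60, -1.33 and 0.16 on day 18, and 0.34, 0.34 and 0.67 on day 24. Their part in the LPL steps was not tested. On day 24 the attachment sites exceeded the inter-sites by 1.77, with no overlap, and by 1.24 without day 24 inter-site replicate 3. The groups in falling order were day 24 attachment, day 13 attachment, day 18 inter-site, day 13 inter-site, day 24 inter-site, day 18 attachment and non-pregnant, and each pair of neighbours overlapped except the last.

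PDK4 was lower in non-pregnant endometrium than on days 13 and 18 of pregnancy at either site, and lower on day 24 than on day 18. At attachment sites it measured 5.21, 4.92 and 5.24 on day 13, 4.78, 5.33 and 4.38 on day 18, and 3.56, 3.64 and 3.66 on day 24. At inter-sites it measured 4.08, 4.81 and 4.75 on day 13, 5.89, 5.60 and 5.03 on day 18, and 3.78, 4.36 and 2.03 on day 24. Non-pregnant sows gave 2.67, 2.92 and 2.13. The last inter-site array of day 24 is the one that resembles non-pregnant replicate 3, and it alone among pregnant arrays lay below the non-pregnant maximum.

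On day 13 PDK4 averaged 5.12 ± 0.18 at attachment sites and 4.55 ± 0.40 at inter-sites, against 2.57 ± 0.40 in non-pregnant sows (SD, n = 3 each). The log2 differences from non-pregnant were 2.55 and 1.98 (SE 0.44 each), or 5.86-fold and 3.93-fold. These comparisons share their control arrays. All 9 probes gave both directions, with 2.29 to 2.93 at attachment sites and 1.84 to 2.06 at inter-sites. Without non-pregnant replicate 3 the differences were 2.33 and 1.75. Within slides, the attachment difference was 2.29 and 3.11, and the inter-site difference was 2.68 and 1.42.

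The highest PDK4 group was the day 18 inter-site, at 5.51 ± 0.44, which exceeded the day 13 inter-site by 0.96 without overlap. The day 24 arrays were then lower at both sites, by a log2 difference of -1.21 at attachment sites and -2.12 at inter-sites against day 18. Leaving out day 24 inter-site replicate 3 made the inter-site difference -1.43 and turned the day 24 site difference of 0.23 to -0.45. In falling order the groups were day 18 inter-site, day 13 attachment, day 18 attachment, day 13 inter-site, day 24 attachment, day 24 inter-site and non-pregnant. The only neighbours without overlap were day 13 inter-site and day 24 attachment, with means 0.93 apart and nearest arrays at 4.08 and 3.66.

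**Figure D1:**
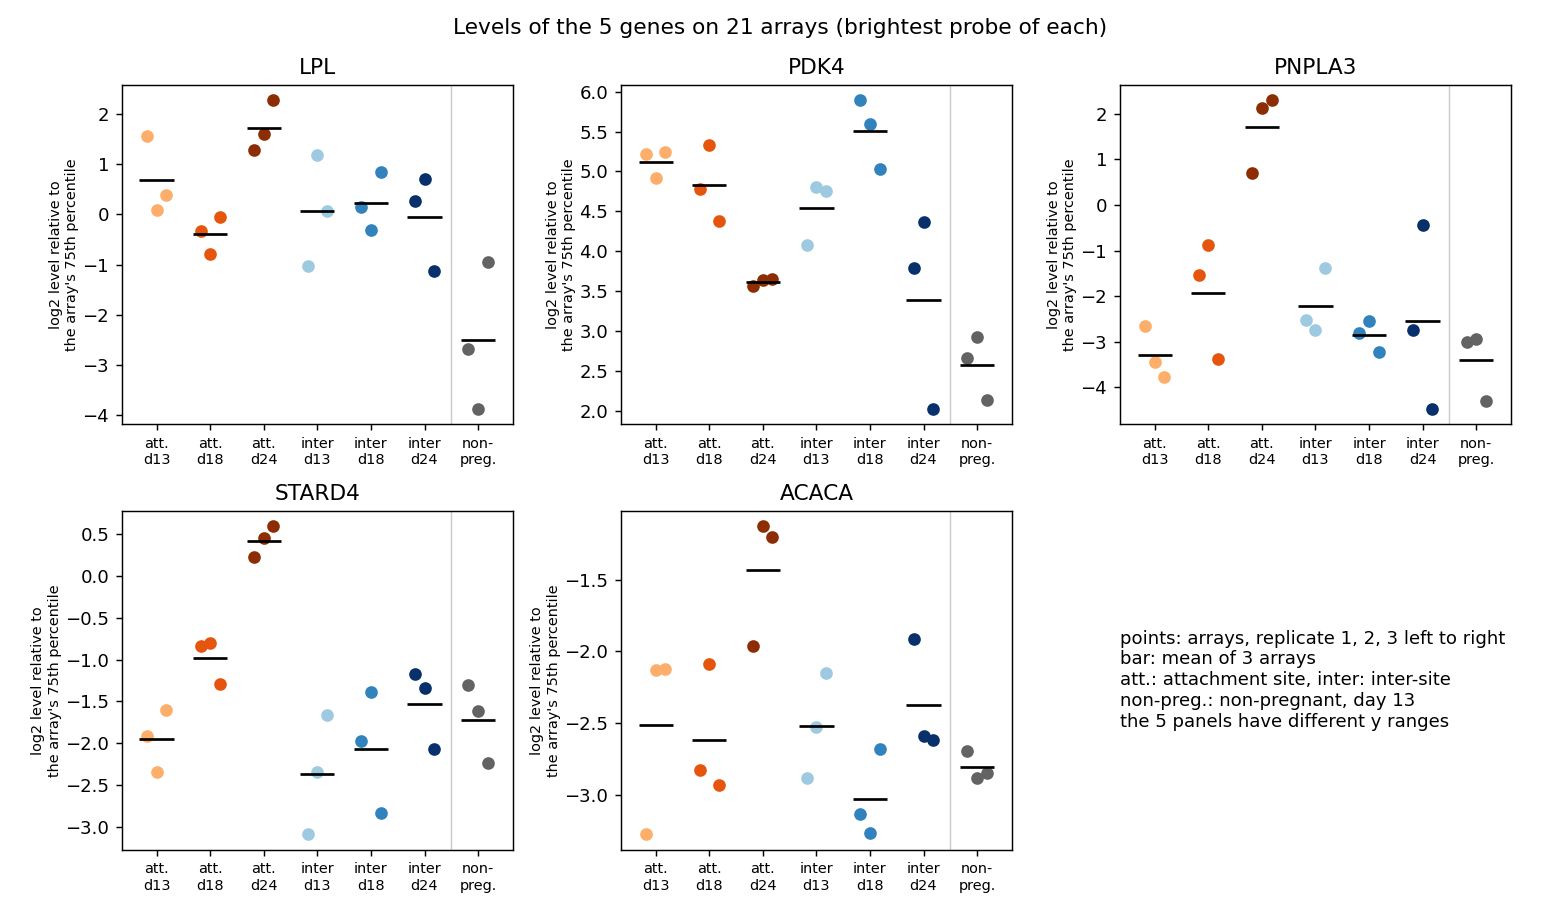
Levels of the 5 genes on each array, with 1 panel a gene, attachment sites (orange to brown) and inter-sites (blue) by day and non-pregnant sows (grey) at the right. The y axis is the log2 level relative to the array's 75th percentile, points are arrays and bars are means of 3. LPL and PDK4 have their lowest mean in the non-pregnant group, and PNPLA3 and STARD4 have all 3 day 24 attachment arrays above all others.

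**Figure D2:**
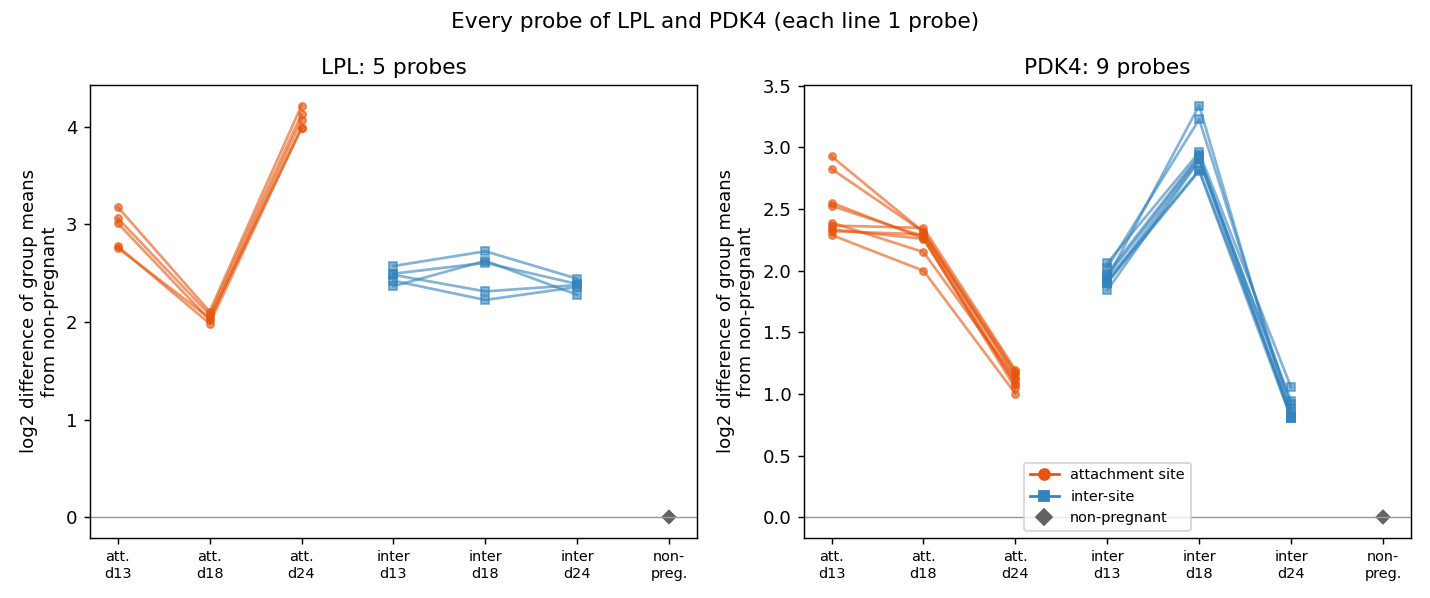
Group means of every LPL probe (left) and PDK4 probe (right) as log2 differences from the non-pregnant mean of the same probe, with attachment sites as circles and inter-sites as squares. The 5 LPL lines run together with a dip on day 18 at attachment sites, and the 9 PDK4 lines peak on day 18 at inter-sites and are lowest on day 24 at both sites.

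A lack of overlap between 3 and 3 arrays was common on these arrays. In the day 13 comparisons with non-pregnant sows, 14.3% of all tested probes were higher without overlap at attachment sites and 10.5% at inter-sites. In the step between day 13 and day 18, 10.9% were higher and 12.5% lower at attachment sites and 3.69% higher at inter-sites. In the step between day 18 and day 24, 15.2% were higher and 13.1% lower at attachment sites and 6.49% lower at inter-sites. Attachment exceeded inter-sites without overlap for 3.9% of probes on day 18 and 6.3% on day 24.

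In the day 13 attachment comparison, 1.79% of all tested probes passed an adjusted p under 0.05 (limma with Benjamini-Hochberg adjustment), 0.841% with a higher level. Of the 19 probes of the 5 genes, 13 did, all higher, 4 of LPL and 9 of PDK4. Since this contrast chose them, nothing is read from that count. In the inter-site comparison with non-pregnant sows 3 probes passed, all of PDK4 and higher, beside 0.143% of all probes. It uses the same non-pregnant arrays by which PDK4 was chosen, so nothing is read from this count either. With slide as a block neither LPL nor PDK4 passed on day 13 at attachment sites, at differences of 3.16 and 2.53. Leaving out any of the 3 day 13 attachment arrays, or non-pregnant replicate 1 or 2, ended both calls. LPL was also not called with normexp background correction or with dim probes kept.

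Markers of other cell types were read beside LPL and PDK4. Of the 8 adipocyte markers on the array, 4 were tested, with list medians between -0.55 and 0.69 over the 21 arrays. Of the 8, only PLIN1, the coat protein of fat droplets in adipocytes, was not above background on any array. The adipocyte list medians were -0.00, -0.11 and -0.14 at day 13 attachment sites and -0.39, -0.14 and -0.55 in non-pregnant sows, the lowest of the first lying just above the highest of the second. The macrophage list medians were -0.12, -0.18 and -0.36 at day 13 attachment sites and -0.73, -0.82 and 0.70 in non-pregnant sows. The smooth muscle list had medians of -1.94, 2.01 and -1.42 at day 13 attachment sites, against 3.12, 3.03 and -2.22 in non-pregnant sows. Non-pregnant replicate 3, low in that list and among the arrays that stand apart, had the highest LPL of its group. The epithelial list had medians of 0.75, 0.20 and 0.42 at day 13 attachment sites, against -0.94, -0.60 and 0.18 in non-pregnant sows, without overlap. Its summed level ran from 173 to 213 at day 13 attachment sites, against 90.8 to 197 in non-pregnant sows. DCN, the 1 stromal marker, was at -0.14, -0.48 and -0.20 at day 13 attachment sites and at -0.13, -0.18 and -0.24 at day 13 inter-sites, relative to its mean over all arrays, against 0.24, -0.07 and 0.30 in non-pregnant sows. It was lower without overlap at both sites. The part of these cell types in the day 13 differences of LPL, PDK4 and the genes below was not tested.

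Other genes of these routes were read on day 13. CD36, which takes up fatty acids, differed from non-pregnant by 0.71 at attachment sites, ANGPTL4, an inhibitor of LPL, by 0.50, and VLDLR, a lipoprotein receptor, by 0.21, with adjusted p of 0.37, 0.72 and 0.80 in limma. PDK1, a kinase of the same family as PDK4, differed by -0.22, and CPT1A, which admits fatty acids to mitochondria, by 0.03 (adjusted p = 0.69 and 0.98, limma). The LPL partners GPIHBP1 and LMF1 and the kinases PDK2 and PDK3 had no probe named here.

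Besides the 5 genes, 6 lists of lipid and fuel genes held 92 tested ones. At day 13 attachment sites 58 of them were higher and 34 lower than in non-pregnant sows, with a median log2 difference of 0.13, against -0.06 over all probes. Of the 92, 1 passed the test, beside 1.79% of all probes (0.841% higher), so nothing is read from the count. It was PPARGC1A, a coactivator that turns on mitochondrial and fatty acid oxidation genes. It measured 1.62, 1.37 and 0.87 at day 13 attachment sites, against -1.68, -1.52 and -0.06 in non-pregnant sows. The groups did not overlap, and PPARGC1A rose by 2.37 (SE 0.51, adjusted p = 0.033, limma). With slide as a block its adjusted p was 0.093 at a difference of 2.57, and the values within slides were 3.14 and 0.94. Leaving out any 1 of the 3 day 13 attachment arrays, or non-pregnant replicate 1 or 2, also ended its call, with an adjusted p of up to 0.14. Without non-pregnant replicate 3 it was 2.88 (adjusted p = 0.015, limma).

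The count of list genes on day 13 changed with arrays outside the comparison. Without the 2 inter-site arrays that stand apart (day 13 replicate 1 and day 24 replicate 3), 9 list genes passed at day 13 attachment sites, all higher. The share of all probes called in that fit is not given here, so nothing is read from the count. Of the 9, 4 belong to cholesterol synthesis or its control: FDPS at 1.92, MSMO1 at 1.62, INSIG2 at 1.44 and CYP51 at 1.09. GK, at 1.34, LIPA, the lysosomal lipase, at 1.12, and PPARGC1A were also among the 9. Over all 21 arrays the same differences had adjusted p of 0.074 to 0.23 for the genes named here other than PPARGC1A (limma), so they are not called.

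At day 13 inter-sites 45 of the 92 list genes were higher and 47 lower than in non-pregnant sows. One passed, beside 0.449% of all probes: PGK1, an enzyme of glycolysis, which fell by 0.94 (SE 0.19, adjusted p = 0.041, limma). It measured 4.03, 3.62 and 3.83 at inter-sites, against 4.81, 4.54 and 4.94 in non-pregnant sows. Only 1 of its 6 tested probes passed, although all were lower, by -0.94 to -0.76. The call was lost with slide as a block (adjusted p = 0.26) and in 13 of the 21 fits that left out 1 array, among them the one without non-pregnant replicate 3 (-0.85, adjusted p = 0.058, limma).

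PNPLA3 was high at day 24 attachment sites and low elsewhere. At attachment sites it measured -2.65, -3.44 and -3.77 on day 13, -1.53, -0.87 and -3.37 on day 18, and 0.70, 2.13 and 2.30 on day 24. At inter-sites it measured -2.52, -2.75 and -1.38 on day 13, -2.80, -2.54 and -3.23 on day 18, and -2.74, -0.43 and -4.47 on day 24. Non-pregnant sows gave -3.0, -2.93 and -4.30. All 3 day 24 attachment arrays lay above the other 18, and the remaining 6 groups, from -1.93 to -3.41 in mean, each overlapped with the next in order.

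The day 24 attachment sites averaged 1.71 ± 0.88, against -2.55 ± 2.02 at day 24 inter-sites and -1.93 ± 1.30 at day 18 attachment sites (SD, n = 3 each). The log2 differences were 4.25 from the inter-sites and 3.63 from day 18 (SE 0.81 each), or 19.1-fold and 12.4-fold. The second tested probe gave 3.54 and 3.47. The third PNPLA3 probe was above background on 2 arrays, day 24 attachment replicates 2 and 3, at -3.29 and -3.87. Without day 24 inter-site replicate 3 the site difference was 3.29, and within the 2 slides that held both groups it was 6.77 and 2.56.

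STARD4 was also highest at day 24 attachment sites. At attachment sites its 1 probe measured -1.91, -2.35 and -1.61 on day 13, -0.84, -0.80 and -1.30 on day 18, and 0.22, 0.45 and 0.60 on day 24. At inter-sites it measured -3.09, -2.34 and -1.66 on day 13, -1.98, -1.38 and -2.84 on day 18, and -1.18, -1.34 and -2.07 on day 24. Non-pregnant sows gave -1.31, -1.62 and -2.24. The attachment arrays of each later day lay above all those of the day before, a stepwise order that the inter-sites, where days overlapped, did not have.

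At attachment sites STARD4 was higher by 0.98 on day 18 than on day 13 and by 1.40 on day 24 than on day 18 (SE 0.39 each). It exceeded the inter-site by 0.41 on day 13, 1.09 on day 18 and 1.95 on day 24, and the sites overlapped on day 13 only. On day 24 the attachment mean was 0.42 ± 0.19, against -1.53 ± 0.47 at inter-sites (SD, n = 3 each), 3.87-fold. Within slides the day 24 site difference was 2.66 and 1.79. The increase of the site difference between day 13 and day 18, of 0.68, and between day 18 and day 24, of 0.86, was not past the threshold among all probes.

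ACACA varied least. Its brighter probe measured -3.28, -2.13 and -2.12 at attachment sites on day 13, -2.83, -2.09 and -2.93 on day 18, and -1.96, -1.13 and -1.20 on day 24. At inter-sites it measured -2.89, -2.53 and -2.15 on day 13, -3.13, -3.26 and -2.68 on day 18, and -1.91, -2.59 and -2.62 on day 24. Non-pregnant sows gave -2.69, -2.88 and -2.85. The day 24 attachment sites were highest, by 1.18 over day 18 without overlap and by 0.94 over the inter-sites with overlap (SE 0.34 each). The other ACACA probe gave 0.19 and 0.74, so the day 24 step rests on 1 probe.

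**Figure D3:**
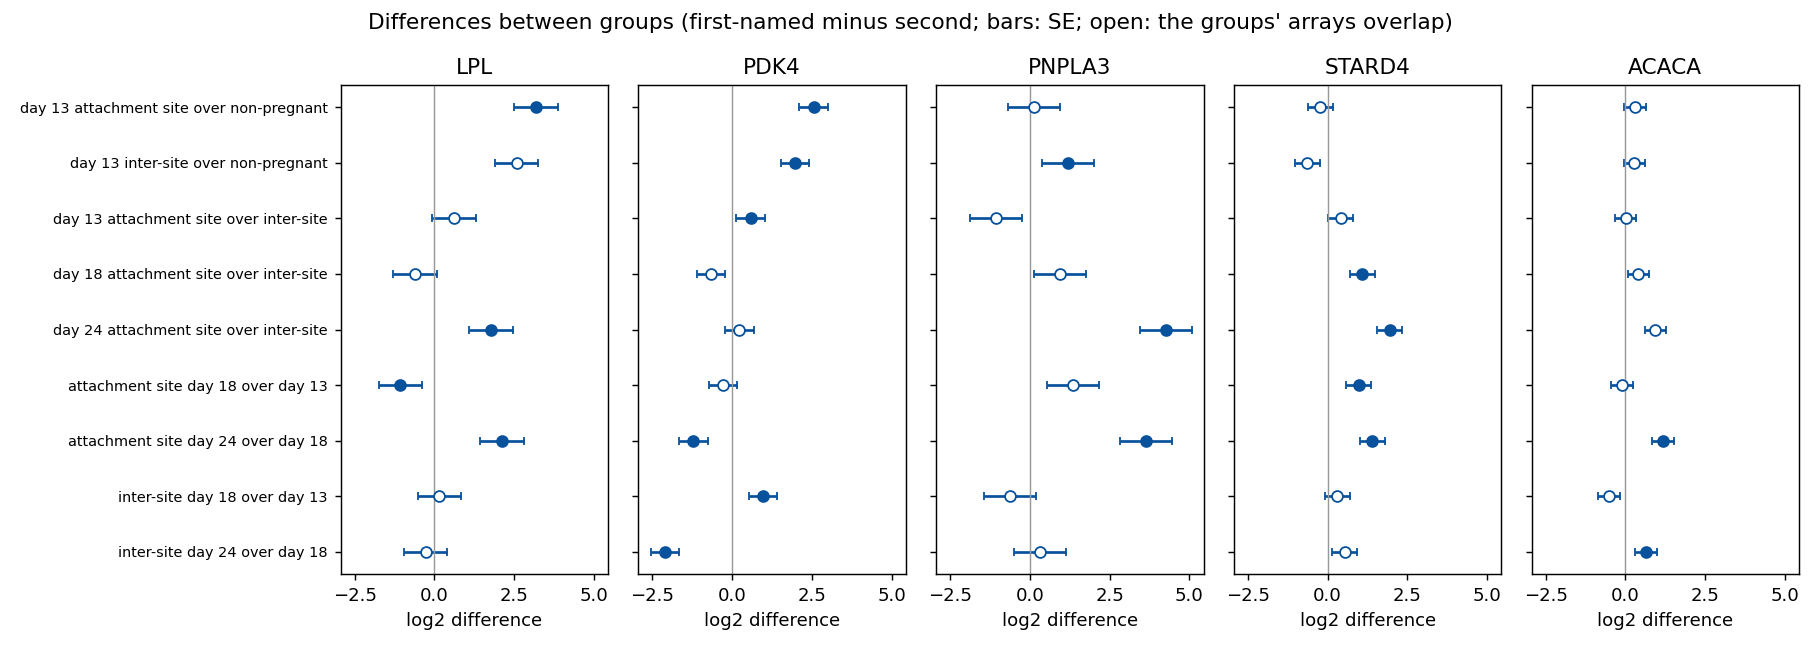
Log2 differences of the 5 genes (brightest probe) in the 9 comparisons, the first-named group minus the second, with bars of 1 SE and open symbols where the arrays of the groups overlap. LPL is furthest from 0 in the day 13 comparisons with non-pregnant sows, PDK4 in the day 13 attachment comparison (2.55) and in day 24 against day 18 at inter-sites (-2.12), and PNPLA3 and STARD4 in the day 24 comparisons of attachment sites.

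On day 24, 0.279% of all tested probes passed between attachment and inter-sites (0.263% higher), and 5.64% passed between day 24 and day 18 attachment sites (3.89% higher). In each of these comparisons 3 of the 19 probes passed, all higher, the 2 tested probes of PNPLA3 and the 1 of STARD4. Nothing is read from those counts, since the choice of these genes may have used them. With slide as a block neither gene passed, at differences of 4.29 for PNPLA3 and 2.08 for STARD4 between the day 24 sites and of 2.96 and 1.41 against day 18. STARD4 was also not called with the replicate block in either comparison, at 1.95 and 1.40, or with slide as a random block between the sites, at 1.93. With dim probes kept, PNPLA3 was not called between the sites and STARD4 in neither comparison, and with normexp STARD4 was not called against day 18. Without the 2 inter-site arrays that stand apart neither passed between the sites, at 3.29 and 1.68. In day 24 against day 18 at inter-sites, 2 of 9 PDK4 probes passed, both lower, beside 0.0465% of all probes. The brightest PDK4 probe did not pass there, at -2.12, and was at -1.43 without day 24 inter-site replicate 3. None of the 19 probes passed in the other 4 comparisons or in the 2 tests of a changed site difference. Their background was 1.79% for day 18 against day 13 at attachment sites, 0.00665% for the same days at inter-sites and 0% for the site comparisons of days 13 and 18. It was 0% and 0.00997% for the change of the site difference between days 13 and 18 and between days 18 and 24.

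Most markers of conceptus and trophoblast were, like PNPLA3 and STARD4, higher at day 24 than at day 18 attachment sites. Of the 11 tested, 10 were higher at day 24 than at day 18 attachment sites and 4 passed (limma): the steroid enzymes CYP17A1 (adjusted p = 0.0050) and HSD17B1 (2.92, adjusted p = 0.014), GATA3, a transcription factor of trophoblast (2.49, adjusted p = 0.023), and AFP, a yolk sac protein (5.62, adjusted p = 0.026). CYP17A1 was not well above background on any day 18 attachment array and was at least 8.20-fold higher on day 24, and AFP was above it on 2 of 3 day 18 arrays. The 11 levels were summed on the linear scale, in units of each array's 75th percentile, where the brightest markers weigh most. The sums came to 468, 380 and 690 at day 24 attachment sites, against 39.6, 82.0 and 16.8 at day 24 inter-sites. They were 36.9, 451 and 38.3 at day 18 attachment sites and 14.1 to 17.3 in non-pregnant sows. On day 18 attachment replicate 2, the array with 451, HBE1 had a log2 level of 8.60. The list medians were 1.58, 3.23 and 3.38 at day 24 attachment sites and 0.10, 0.61 and -0.68 at day 18 attachment sites. At day 24 inter-sites they were 0.13, 1.06 and -0.87, so the day 24 attachment sites lay above both groups without overlap. Of the 11, 6 were above background on all 21 arrays, and AFP and CYP17A1 were above it on 0 of 3 non-pregnant arrays.

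PAG6, a pregnancy-associated glycoprotein made by trophoblast, measured 6.29, 7.93 and 8.17 at day 24 attachment sites. It measured 2.17, 5.78 and -4.97 at day 24 inter-sites and 1.78, 5.48 and 2.11 at day 18 attachment sites, against -6.65, -6.42 and -4.03 in non-pregnant sows. The 5 arrays with most PAG6 were the 5 with most PNPLA3, in the same order, and they include inter-site replicate 2 of day 24 and attachment replicate 2 of day 18. Below these the orders parted: day 13 inter-site replicate 1 was 8 in PNPLA3 and 21 in PAG6, and day 18 attachment replicate 3 was 17 in PNPLA3 and 8 in PAG6. PAG6 is 1 of the 11 markers, and they did not all run alike. HBE1, another of them, was highest on day 18 attachment replicate 2, at 8.60, and measured 4.34, -0.19 and -2.43 at day 24 inter-sites. On day 24 inter-site replicate 2 GATA3 was 3.12 and STARD4 -1.34, within the range of its group. Other cell types differed as well. The T and NK lymphocyte list medians were -0.18, -0.24 and -0.00 at day 24 attachment sites, against 2.01, 0.40 and 1.08 at day 18 attachment sites, and the epithelial ones were higher on day 24, both without overlap. The endothelial list medians were 0.26, 0.83 and 0.25 at day 24 attachment sites, against -0.14, 0.02 and -0.14 at day 24 inter-sites, also without overlap. The part of conceptus RNA and of these cell types in the day 24 differences of the 5 genes and of the lists was not tested.

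**Figure D4:**
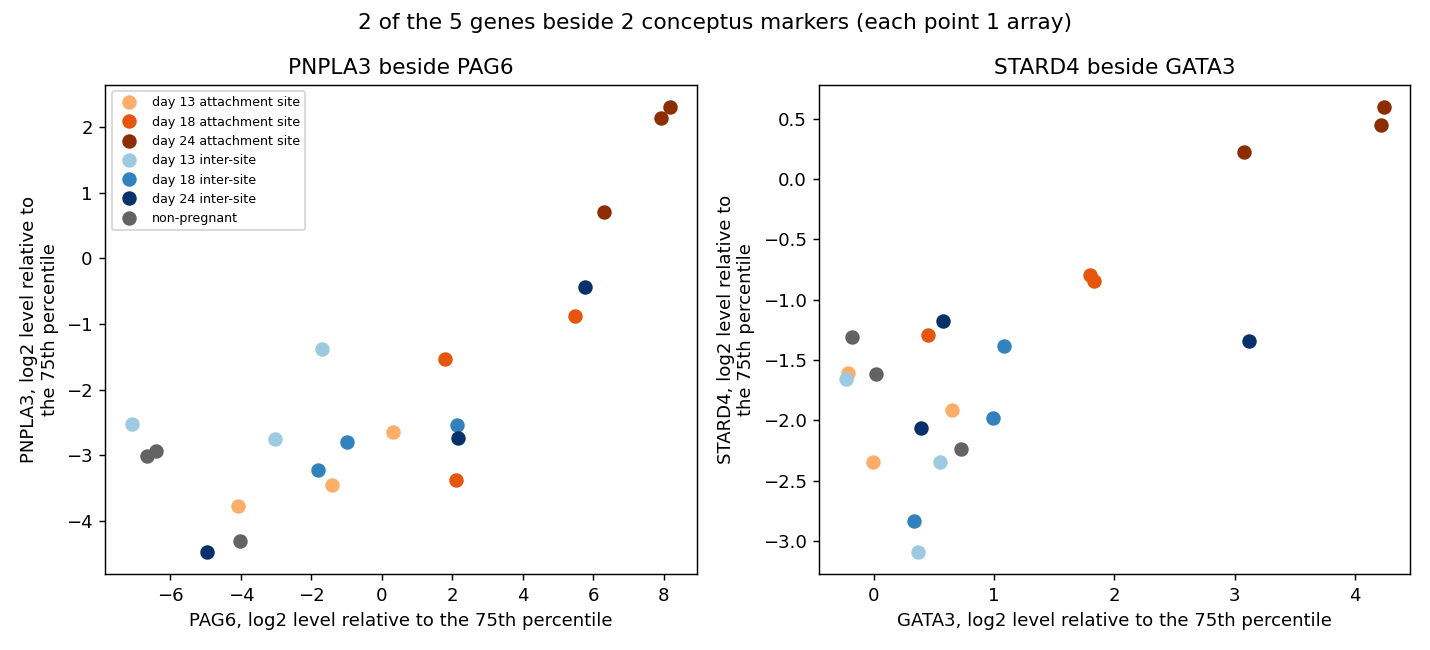
PNPLA3 against PAG6 (left) and STARD4 against GATA3 (right), both as log2 levels relative to the array's 75th percentile, each point 1 of 21 arrays coloured by group. The 3 day 24 attachment arrays are at the upper right in both panels. Day 24 inter-site replicate 2 has the highest PNPLA3 of its group, -0.43, and a STARD4 level of -1.34, among the other inter-sites.

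Of the 92 other lipid and fuel genes, 13 rose between the day 18 and day 24 attachment sites and 0 fell, and 64 of the 92 were higher. Of all tested probes 5.64% passed, 3.89% with a higher level. The median log2 difference of the 92 was 0.35, against -0.00 over all probes. The 92 are the brightest tested probes of named genes, while the background holds all tested probes, named or not. Fatty acid synthesis and desaturation had 3 of 13: SCD, which puts the double bond into stearate, rose by 2.02 (SE 0.34, adjusted p = 0.0050, limma). SCD measured 2.77, 4.14 and 3.87 on day 24, against 1.01, 2.14 and 1.56 on day 18, without overlap, and all 9 of its probes passed. FASN, the fatty acid synthase, rose by 1.37, and FADS1, a desaturase of long-chain fatty acids, by 1.53 (adjusted p = 0.023 and 0.022, limma).

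Triglyceride genes had 4 of 18: DGAT1, which adds the last acyl chain (0.93, adjusted p = 0.0079), AGPAT2, which adds the second (1.25, adjusted p = 0.031), GK, which supplies glycerol phosphate (1.61, adjusted p = 0.024), and PPARG, a regulator of fat storage (1.80, adjusted p = 0.034, limma). The droplet lipase PNPLA2, a close relative of PNPLA3, was at 0.29, its coactivator ABHD5 at 0.89, the hormone-sensitive lipase LIPE at 0.11 and the droplet coat PLIN2 at 0.22. None of these 4 passed (adjusted p = 0.67, 0.092, 0.78 and 0.70, limma).

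Cholesterol genes had 1 of 18, though 16 were higher: STAR, which carries cholesterol into mitochondria for steroid synthesis and is of the same domain family as STARD4. STAR measured -2.36, -1.12 and -0.81 at day 24 attachment sites, against -4.71, -3.95 and -4.56 on day 18, a rise of 2.98 (SE 0.78, adjusted p = 0.034, limma). NPC1, an exporter of lysosomal cholesterol, was at 0.50, and STARD3, a cholesterol carrier of late endosomes, at 0.15 (adjusted p = 0.31 and 0.75, limma).

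Glucose and pyruvate genes had 3 of 14: DLAT, a subunit of the pyruvate dehydrogenase complex that PDK4 inhibits, rose by 0.73, and PGK1 by 0.66 (adjusted p = 0.022 and 0.048, limma). One of 2 DLAT probes and 2 of 6 PGK1 probes passed. The PGK1 call held in 6 of the 21 fits that left out 1 array and was lost with quantile normalization, the value table and the replicate block (adjusted p = 0.11, 0.11 and 0.060, limma). The glucose transporter SLC2A2 was not well above background on any day 18 attachment array and was at least 9.23-fold higher on day 24 (adjusted p = 0.0083). Fatty acid uptake had 2 of 14, the fatty acid binding protein FABP3 (2.70, adjusted p = 0.037) and APOC3, an inhibitor of LPL (2.58, adjusted p = 0.029, limma). Fatty acid oxidation had 0 of 15 in limma, 2 at an unadjusted p under 0.05, with 6 higher and 9 lower.

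On day 24 inter-site replicate 2, the array of its group with most PAG6, the 13 genes went different ways. SLC2A2 was -3.23 there, against -7.19 and -7.58 on replicates 1 and 3 of that group, where it was not well above background. STAR was -1.03, against -4.36 and -5.97, and PPARG was 0.73, against -0.78 and -0.75. Also highest on replicate 2 were FABP3, at 1.91 against 1.67 and 1.54, and PGK1, at 5.07 against 4.67 and 4.77. So were AGPAT2, at 0.68 against 0.10 and 0.62, and FADS1, at -2.86 against -2.98 and -3.33. APOC3, at -4.41 against -5.24 and -4.15, and DLAT, at 1.74 against 1.64 and 1.88, lay between the others. FASN was lowest on replicate 2, at 3.96 against 4.83 and 4.36, and GK lay between the others, at -1.59 against -1.30 and -2.31. SCD, at 2.49, 2.55 and 2.85 over the 3 day 24 inter-site arrays, did not set that array apart, and DGAT1 was -0.15, -0.49 and -0.38. With slide as a block 3 of the 13 genes passed, SCD, FASN and DGAT1, and on the 1 slide that held both days all 13 were higher on day 24. Leaving out day 24 attachment replicate 2 or 3, or day 18 attachment replicate 1 or 3, brought the count to 1, 2, 7 and 4, and SCD passed in all 21 fits that left out 1 array.

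**Figure D5:**
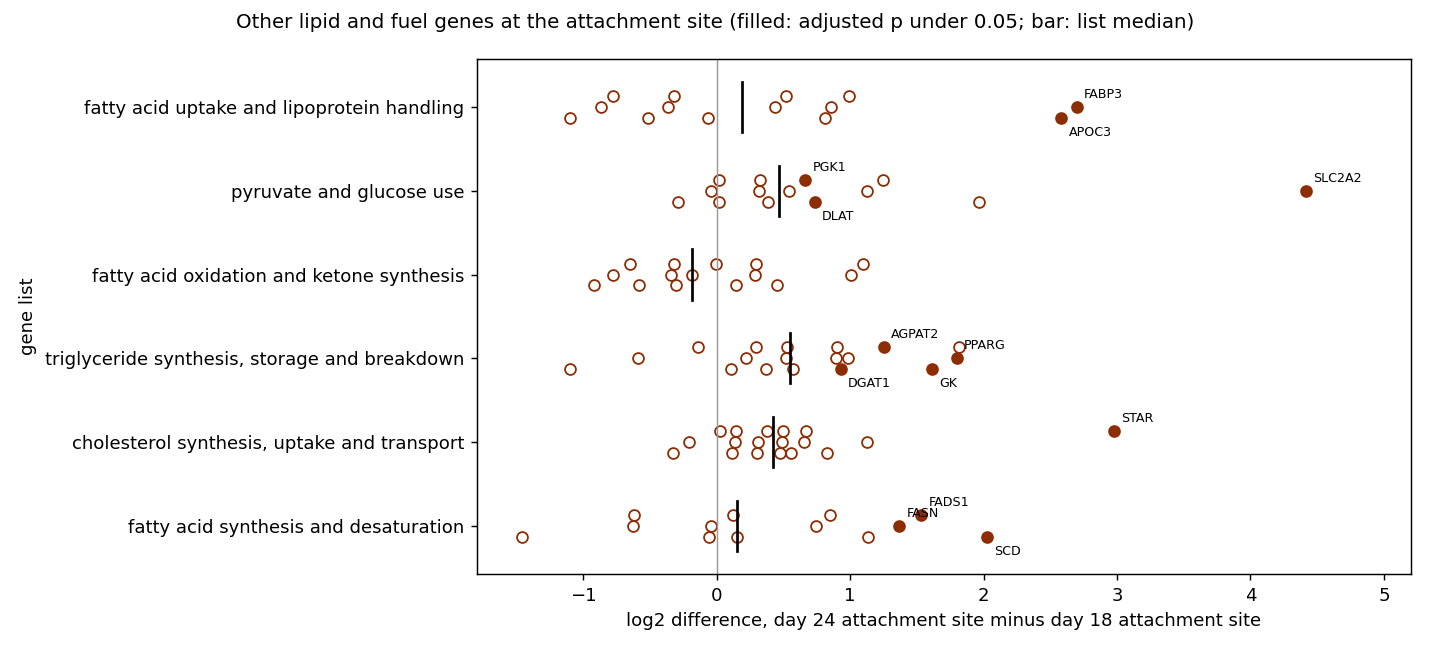
Log2 differences, day 24 minus day 18 attachment site, of the 92 other lipid and fuel genes in 6 lists, with filled points for an adjusted p under 0.05 and a bar at each list's median. The 13 filled points all lie right of 0, in every list but fatty acid oxidation, whose median is -0.18.

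In the remaining 6 comparisons 0 of the 92 list genes passed in limma. At an unadjusted p under 0.05 there were 22 for day 18 against day 13 at attachment sites and 6 at inter-sites, 16 for day 24 against day 18 at inter-sites, and 4, 4 and 11 between the sites of days 13, 18 and 24. For day 18 against day 13 at attachment sites, 10 passed without day 18 attachment replicate 3, 1 higher and 9 lower, the oxidation genes ACADS and HADH among those called. The share of all probes called in that fit is not given here, so nothing is read from this count. The lowest adjusted p of all probes was 0.090 between the sites of day 13 and 0.070 between those of day 18, where 2446 and 1412 of 30091 probes had an unadjusted p under 0.05. Between the sites of day 24 65 list genes were higher at the attachment site and 27 lower, with a median difference of 0.22, against -0.05 over all probes.

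The group explained 72.4% of the variance of LPL over the arrays, 81.7% of PDK4, 77.3% of PNPLA3, 82.0% of STARD4 and 64.6% of ACACA. The median over all tested probes was 45.2%. These shares are a description only, since the genes were chosen by values of these same arrays. The 3 genes most like each were found by the root mean square difference of the 7 centred group means, among 2017 genes. For LPL they were CLDN8 (0.39), CITED1 (0.41) and GCNT7 (0.47), and for PDK4 FMO1 (0.34), RGS2 (0.39) and NR0B1 (0.44). For PNPLA3 they were SPAM1 (0.37), LOC100521229 (0.54) and RNASE1 (0.57). For STARD4 they were CST3 (0.25), SLC3A1 (0.27) and GGTA1P (0.28), and for ACACA CTSB (0.11), CLDN9 (0.12) and ACKR4 (0.14). FMO1 had group means of 4.87, 4.80 and 3.83 at attachment sites and 4.55, 5.94 and 4.25 at inter-sites on days 13, 18 and 24, against 2.94 in non-pregnant sows, with the day 18 inter-site again highest.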

How the data were processed

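Endometrial RNA was read on 21 arrays, 3 in each of 7 groups. The deposited scanner files, made by the authors with Agilent Feature Extraction 10.7.3.1 per the file headers, hold the processed intensity of each spot, background-subtracted, and flags (other) for outliers and for signal well above background. The authors' deposited value table is on the log2 scale with a median of 5.85 in every column. The columns of day 24 inter-site replicates 2 and 3 follow each other's scanner files, and it served as an alternative. The program behind it is not stated in those sources.

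Control and outlier spots were dropped, and log2 intensity minus the array's 75th percentile was analysed. A probe was tested when well above background on all 3 arrays of a group (30091 of 43603 probes). Genes were named through RefSeq accessions (5461 probes, 2389 genes). No saturated spot was found, and the number of arrays limits the precision. The 7 group means were fitted in limma 3.58.1 under R 4.3.3 with Benjamini-Hochberg adjustment over all probes of a comparison and a threshold of 0.05. The fit was tested on simulated data.

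The 5 genes and the lists were chosen with earlier results of these data known. Named are all probes of the 5 genes, list genes past the threshold (up to 8 a list), fixed partner genes and the 3 most alike genes. A few genes that this rule would name are not reported here. Genes called only without 2 arrays were named after their values were seen. Whether samples with the same replicate number at the 2 sites of a day share a sow could not be told. Of 9 such pairs 4 correlated above 0.1, and 5 correlated best with their own number. With 3 sows a day and 3 arrays at each site, the sites probably share animals, while the main fit treated their arrays as independent. Its SEs and calls for site comparisons and changed site differences therefore leave out any such pairing. Alternatives were normexp (run on the median signals), quantile normalization, the value table, no filter, slide as a block or random block, a replicate block, and arrays left out.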

Additional observations from a re-analysis of the deposited data

How the results depend on the processing

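Over 8 alternatives 353 of 360 differences of the 5 genes moved by less than the spread between arrays. The sign changed in 16 of the 360, and in 17 of 945 differences when 1 array at a time was left out. With normexp, which moved the median of all probes to -0.26 for day 13 attachment against non-pregnant, -0.28 for the day 13 sites and -0.27 for day 18 against day 13 inter-sites, LPL was at 2.07 and ACACA at -0.18 in the comparison with non-pregnant, STARD4 at -0.19 and ACACA at -0.44 between the day 13 sites, and STARD4 at -0.38 in the inter-site step. Without day 13 inter-site replicate 1 and day 24 inter-site replicate 3, PDK4 was at -0.45 between the day 24 sites and at -1.43 for day 24 against day 18 inter-sites. Leaving out 1 array at a time gave PDK4 ranges of -0.45 to 0.71 and -2.60 to -1.43 there.

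The counts of called list genes depended more on the setting, and the share of all probes called in each alternative is not given here. The 1 gene at day 13 attachment sites became 0 with normexp, without a filter and with slide as a block, and 9 without those 2 arrays. The 1 gene at day 13 inter-sites became 0 with normexp, quantile normalization, the value table, no filter, the slide block and the replicate block, and 3 without the 2 arrays. The 13 genes of day 24 against day 18 attachment sites became 1 with normexp, 8 without a filter and 3 with the slide block. The replicate block gave 1 gene in place of 0 between the day 24 sites and 2 in place of 0 for day 18 against day 13 attachment sites, as did leaving out the 2 arrays in the second case (2). It gave 1 gene at day 13 attachment sites and 12 for day 24 against day 18 attachment sites, and 5 of 9 samples correlated best with their own number. Leaving out 1 array gave 0 to 4 at day 13 attachment sites (4 without day 13 inter-site replicate 1), 0 to 2 at day 13 inter-sites, 1 to 14 for day 24 against 18 and 0 to 10 for day 18 against 13 at attachment sites (10 without day 18 attachment replicate 3). It gave 0 to 2 between the day 24 sites, 0 to 2 for day 24 against 18 inter-sites and 0 to 1 for the changed site difference. The calls of LPL and PDK4 on day 13 held in 16 of 21 such fits and were lost in 5 of the 6 that left out an array of the comparison, PNPLA3 in 18 and STARD4 in 8 of 21 for day 24 against 18, and 10 and 6 of 21 between the day 24 sites. The cause of these changes was not tested, beyond the smaller number of arrays.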
